A study of Saccharomyces cerevisiae with 6 samples.

Results

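In budding yeast many protein-coding genes are also transcribed from the opposite strand, but the antisense RNA is usually rare next to the mRNA. The transcripts described here are the exceptions, 337 nuclear mRNAs whose opposite long non-coding RNA (lncRNA) was not rare. They were chosen by measured values, namely a mean normalised read count above 40 over all 6 libraries, and an overlapping lncRNA of the other strand (at least 0.5 of either span) whose mean over the 3 J2 unbound libraries was at least 0.25 of that of the mRNA. The 337 were 5.91% of the 5703 nuclear mRNAs above that mean, in a table of 15753 features. Of the other mRNAs, 4675 had opposite lncRNAs that all lay under this ratio and 691 had none overlapping by that share. Where several lncRNAs qualified, the most abundant in unbound is called the partner.

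The data come from RNA immunoprecipitation with J2, an antibody that binds double-stranded RNA (dsRNA), followed by sequencing. All libraries were made from total RNA of Wild type S288C cells without further treatment, grown at 25 °C. Each precipitation used 90 µg RNA and 3 µg antibody for 120 min at 4 °C. The 3 J2 eluate libraries hold RNA released from the beads, and the 3 J2 unbound libraries hold the supernatant that remained after J2 was applied again. Counts summed over features ran from 18645818 to 43141091 per library. The snoRNA features took 3.54% to 4.46% of the counts in unbound and 0.298% to 0.389% in eluate libraries.

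When sense and antisense transcripts of a locus meet, they can anneal over the bases they share. The classes of yeast lncRNA are named by how they decay: cryptic unstable transcripts (CUTs) are removed by the nuclear exosome, Xrn1-sensitive unstable transcripts (XUTs) by the cytoplasmic exonuclease Xrn1, and stable unannotated transcripts (SUTs) persist in wild-type cells. Antisense transcription is best known in yeast from genes that are silent or little expressed in the growth condition at hand, such as those of meiosis and of phosphate and galactose use.

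Bases shared by an mRNA and its partner are shown for 11 pairs on which the results below turn. All are given in the direction of the mRNA, and the partner carries the complement. Capitals mark the start or the stop codon of the reading frame. The stretches of 90 bases are genomic, so that an intron is included where it begins inside them. The sequence is that of the RefSeq S288C reference (R64, the sequence of sacCer3).
CMC4 with CUT306, start codon, chrXIII:652798-652887, minus strand: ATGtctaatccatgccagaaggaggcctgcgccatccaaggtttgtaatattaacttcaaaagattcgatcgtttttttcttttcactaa
ZIP2 with SUT534, start codon, chrVII:33098-33187, plus strand: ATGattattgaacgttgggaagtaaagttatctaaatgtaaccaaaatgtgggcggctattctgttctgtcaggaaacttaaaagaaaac
SPO22 with XUT_9F-113, start codon, chrIX:225865-225954, minus strand: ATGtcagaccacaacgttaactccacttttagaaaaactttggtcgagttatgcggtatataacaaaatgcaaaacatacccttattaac
NDT80 with SUT587, start codon, chrVIII:356561-356650, plus strand: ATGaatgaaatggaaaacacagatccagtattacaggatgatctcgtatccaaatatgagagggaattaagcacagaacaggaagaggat
SMK1 with antisense1381, stop codon, chrXVI:667357-667446, plus strand: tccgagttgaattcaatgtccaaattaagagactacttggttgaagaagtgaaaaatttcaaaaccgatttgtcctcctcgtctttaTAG
RGT2 with XUT_4R-81, start codon, chrIV:213351-213440, plus strand: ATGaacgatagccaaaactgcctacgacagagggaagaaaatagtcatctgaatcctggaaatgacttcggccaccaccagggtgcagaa
ADH2 with XUT_13F-375, stop codon, chrXIII:873291-873380, minus strand: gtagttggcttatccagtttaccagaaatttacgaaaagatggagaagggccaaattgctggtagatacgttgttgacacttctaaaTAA
PHO84 with CUT281, start codon, chrXIII:25711-25800, minus strand: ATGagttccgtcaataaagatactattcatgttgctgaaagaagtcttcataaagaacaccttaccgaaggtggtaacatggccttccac
MIX23 with antisense275, start codon, chrII:10462-10551, minus strand: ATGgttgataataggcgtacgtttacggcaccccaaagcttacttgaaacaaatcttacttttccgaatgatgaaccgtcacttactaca
YPR092W with antisense1397, the whole overlap, chrXVI:718583-718650, plus strand: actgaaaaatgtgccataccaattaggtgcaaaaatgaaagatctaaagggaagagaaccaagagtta
YOL097W-A with antisense2460, the whole overlap, chrXV:136014-136038, plus strand: accaatactcggaaaaatgcaggac
The last 2 pairs are shown because they share the fewest bases among the pairs named here, only 68 and 25. Over the 337 pairs the overlap had a median of 1237 bases and ran from 25 to 5664.

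The partners came from every class of lncRNA in the table. There were 125 numbered antisense RNAs (37.1%), 92 SUTs (27.3%), 85 XUTs (25.2%), 27 CUTs (8.01%) and 8 RNAs named after their host gene with the ending as (2.37%). Among the 4675 pairs under the ratio, by contrast, 82.6% of the lncRNAs were numbered antisense RNAs, 5.05% were SUTs and 3.70% were XUTs. The partner covered the whole mRNA in 107 pairs, its start in 137, its end in 34 and only an inner stretch in 59. Since some partners run past several genes, 313 distinct lncRNAs served the 337 mRNAs, and 46 mRNAs shared their partner with another.

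The mRNAs were of ordinary length but low abundance. Their median span was 1623 bases against 1648.5 for the other nuclear mRNAs, and their GC content 38.9% against 38.0%. Their median of the mean normalised count was 181, against 1084 for the others, and levels ran from 40.5 to 7848. A low count of the mRNA raises the ratio, so the rule itself favours low mRNAs. Within 30 kb of a chromosome end lay 9.20% of them and 4.12% of the others.

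In unbound, the ratio of partner to mRNA had quartiles of 0.348, 0.62 and 1.42, and 124 partners were at least as abundant as their mRNA. The highest ratio was 26.7, for CSS1. Just inside the limit stood REX2 (0.252), VAC17 (0.253) and BCS1 (0.254), and just outside it NNK1 (0.2499), ARP10 (0.2497) and TAH1 (0.246). The ratio was met in each unbound library alone by 257 of the 337. Counted per base of transcript, 265 pairs had a ratio of at least 0.25 and 114 of at least 1.

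Unlike most mRNAs, these transcripts were not depleted from the eluate as a group. Their median log2 fold change of eluate over unbound was 0.01, with 0.04, 0.13 and -0.08 in the same-numbered library pairs 1, 2 and 3. That of the other 5366 nuclear mRNAs was -1.47, with -1.37, -1.51 and -1.53. In the limma fit, 95 of the 337 mRNAs were called higher in the eluate (28.2%), 85 lower (25.2%) and 157 neither, whereas 7.73% of all nuclear mRNAs above the mean were called higher and 74.7% lower. Over all 10188 features above that mean, 34.6% were called higher and 48.0% lower. Because the unbound libraries chose the members, these counts are a description. The fold changes are on the log2(normalised count + 1) scale and understate the change of low transcripts. A call means an adjusted p under 0.05 with Benjamini-Hochberg adjustment over all features.

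The direction of single mRNAs depends on how the libraries are scaled, and the distance from other mRNAs does not. Scaling to the total count raised the fold changes of all features above the mean by a median of 0.91 and turned the 95 higher and 85 lower into 191 and 23. Size factors from nuclear mRNAs only raised them by 1.32, giving 235 and 10. Relative to the other nuclear mRNAs, the members' median was higher by 1.48 under the deposited factors and under both of these scalings. A change of size factors moves all features nearly alike, so this difference could hardly change.

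To test mRNAs in libraries that had not chosen them, members were also picked from a single unbound library and tested by limma on the remaining 5. Picking on unbound 1, 2 and 3 gave 337, 356 and 294 mRNAs, and 217 of the 337 were found in every choice. The median log2 fold changes of the 3 choices were -0.07, -0.23 and -0.17. Those of 5310, 5292 and 5319 other nuclear mRNAs, a set that differed with the library used, were -1.50, -1.54 and -1.44. Of the chosen mRNAs, 66, 67 and 72 were called higher in the eluate, and 81, 116 and 88 lower. Of the 337 members, 77 were called higher and 68 lower in all 3 of these held-out fits, where 6.17% of the nuclear mRNAs were called higher and 69.6% lower. The 337 had been chosen on the mean of all unbound libraries, so each fit still held libraries that took part in the choice. These calls, and the p-values below, are therefore not independent of the choice. The adjusted p-values below are the highest of the 3 held-out limma fits, beside fold changes from all 6 libraries, and a transcript is said to have risen or fallen only where that p is under 0.05. At the limit of the ratio, REX2 (0.77, SE 0.28, adjusted p = 0.125), VAC17 (-0.02, SE 0.175, adjusted p = 0.915) and BCS1 (-0.51, SE 0.214, adjusted p = 0.183) did not pass in the held-out limma fits, although REX2 did in the fit on all libraries (adjusted p = 0.0307). SUT255 opposite REX2 rose by 2.11 (SE 0.178, adjusted p = 6.47e-05).

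How far the members stood from other mRNAs differed with the level of the mRNA. At means of 40 to 100 the median log2 fold change was -0.20 for 104 members and -0.32 for 163 other mRNAs, whose quartiles of -1.43 and 1.69 enclosed those of the members (-0.97 and 0.53). At 100 to 300 the medians were -0.10 and -1.32, and at 300 to 1000 they were 0.25 and -1.51. Above 1000, 30 members had a median of 0.77 and 2823 others one of -1.53, with 19 of the 30 called higher and 1 lower. The mean includes the eluates, so a rise in the eluate itself lifts an mRNA into a higher bin. With bins by the unbound mean, a choice made after seeing the data, 16 members above 1000 had a median of 0.22 (4 higher, 3 lower) and 3405 others one of -1.68. The medians of members were then -0.12, -0.21 and 0.19 in the lower 3 bins, against 0.11, -0.89 and -1.24 for others, so the rise of the members' median with level was smaller. The 27 members with an unbound mean under 40 had a median of 1.80, and 79 others of that level one of 2.77.

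**Figure D1:**
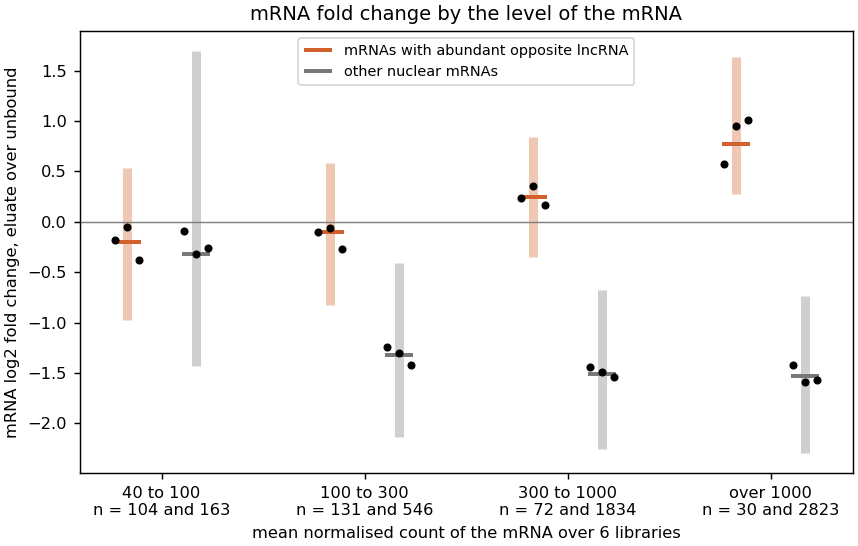
mRNA log2 fold change of eluate over unbound (vertical axis) in 4 bins of the mean normalised count of the mRNA, for mRNAs with abundant opposite lncRNA (orange) and other nuclear mRNAs (grey). Dashes are medians, bars span the quartiles and black points are the medians of library pairs 1 to 3; the medians are close at 40 to 100 (-0.20 and -0.32) and far apart above 1000 (0.77 and -1.53). The bins use the mean over all 6 libraries, eluates included.

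The fold change of the mRNA also moved with the ratio that served to choose the members. Taking all nuclear mRNAs above the mean together, the medians were -1.74 where the unbound ratio was under 0.01, -1.36 at 0.01 to 0.05, -0.79 at 0.05 to 0.25, -0.21 at 0.25 to 1 and 0.34 at 1 and over. A chance excess of unbound counts in the mRNA lowers both quantities together, so the order is partly built in. With members chosen on a single unbound library and fold changes from the others, those at a ratio of 1 and over had medians of 0.22, 0.16 and 0.26, and those under 1 had -0.33, -0.50 and -0.32.

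**Figure D2:**
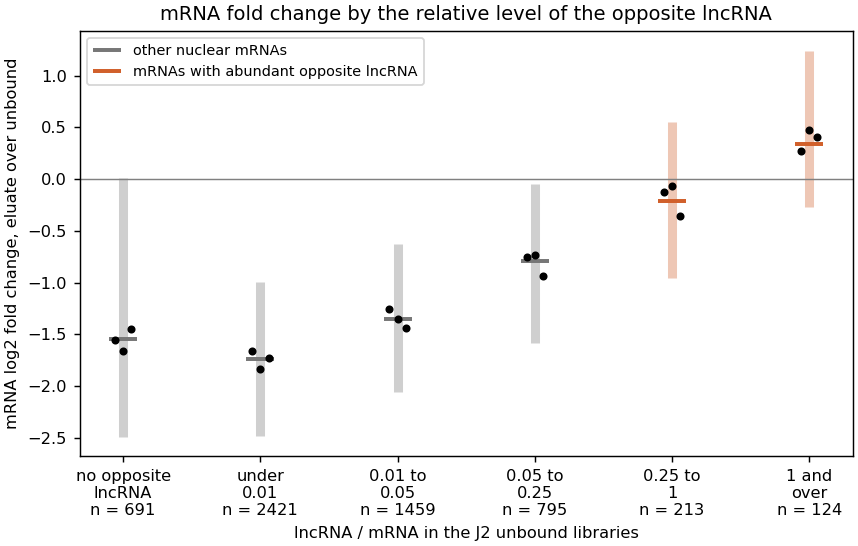
mRNA log2 fold change of eluate over unbound (vertical axis) in bins of the unbound ratio of opposite lncRNA to mRNA (horizontal axis). Dashes are medians, bars span the quartiles and black points are the medians of library pairs 1 to 3; the median rises from -1.74 under a ratio of 0.01 to 0.34 at 1 and over, and the 2 orange bins hold the 337 members.

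The partner lncRNAs were called higher in the eluate more often than their mRNAs. Their median log2 fold change was 0.49, with 0.37, 0.53 and 0.62 in the library pairs, and 146 were called higher (43.3%) and 61 lower (18.1%). Of all lncRNAs above the mean, 73.1% were called higher and 10.5% lower. In the held-out choices the partners' medians were 0.54, 0.70 and 0.61. Partners that covered the whole mRNA had a median of 0.93, with 64 of 107 higher and 6 lower, and their mRNAs had -0.37. Partners inside an mRNA had -0.08, with 16 of 59 higher and 20 lower, and their mRNAs had 0.26. By class, the 125 numbered antisense RNAs had a median of 0.84 and their mRNAs -0.45, the 92 SUTs 0.29 and their mRNAs 0.31, and the 85 XUTs 0.42 and their mRNAs 0.25. The 27 CUTs had -0.24 and their mRNAs -0.08.

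The median ratio of the strands moved toward parity in the eluate. Within a library the ratio needs no size factor. The median log2 ratio of partner to mRNA was -0.65 ± 0.05 over the unbound libraries (SD, n = 3) and 0.04 ± 0.08 over the eluates (SD, n = 3). Single libraries gave -0.65, -0.61 and -0.71 in unbound against -0.04, 0.04 and 0.13 in eluate, without overlap. Partners at least as abundant as their mRNA made up 35.3% ± 1.95 of the pairs in unbound and 51.3% ± 2.67 in eluate libraries (SD, n = 3). The share of pairs within 4-fold of parity was 82.1% ± 5.57 in unbound and 80.1% ± 2.83 in eluate libraries (SD, n = 3). The ratios of means spread more widely, from 0.252 to 26.7 in unbound and from 0.0130 to 129 in the eluate, the lower end in unbound being set by the rule. For the 4675 pairs under the ratio, the median rose from -6.69 ± 0.21 to -3.22 ± 0.18 (SD, n = 3). Where the partner had been the more abundant strand (124 pairs), the median log2 ratio went the other way, from 1.04 ± 0.14 to 0.59 ± 0.09 (SD, n = 3). The ratio of means was lower in the eluate for 131 pairs and higher for 206. The unbound ratios served the choice, so these values are a description.

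**Figure D3:**
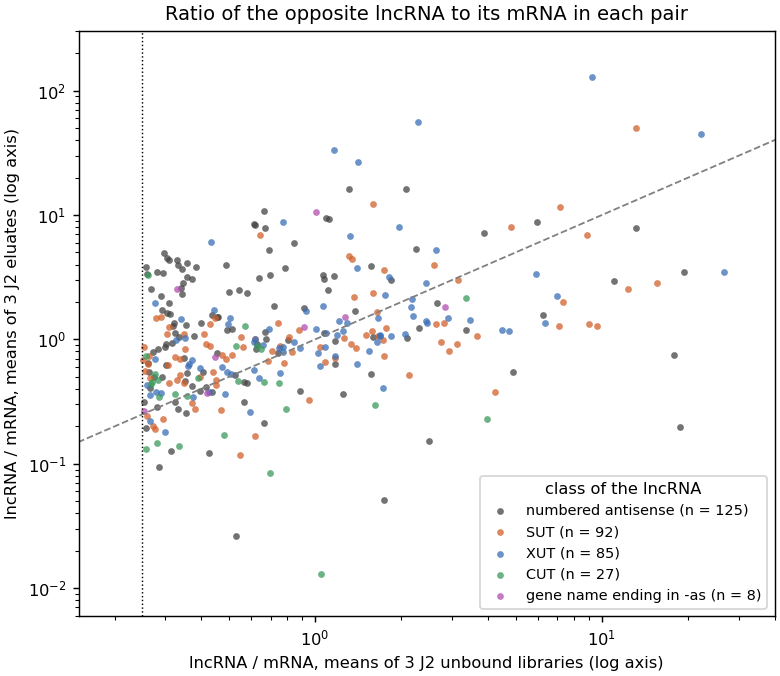
Ratio of the partner lncRNA to its mRNA from the means of 3 eluates (vertical axis) against the means of 3 unbound libraries (horizontal axis), both log axes, 1 point per pair and colour by class of lncRNA. The dashed line marks equal ratios and the dotted line the limit of 0.25; 206 pairs lie above the dashed line and 131 below it.

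The 2 strands of a pair did not move together to any extent. Across the 337 pairs, which share libraries and are not independent, Pearson's r of the log2 fold changes of mRNA and partner was 0.09 and Spearman's rho 0.12. Both strands were called higher in 54 pairs and both lower in 17. In 36 pairs the mRNA was lower and the partner higher, in 14 the reverse, and in 71 neither was called. Taken alone, 28.2% of the mRNAs were called higher and 25.2% lower, and 43.3% of the partners higher and 18.1% lower. Whether the joint counts differ from what these shares would give was not tested.

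Among mRNAs in pairs free of other same-strand features, the largest increase was that of CMC4, which encodes a small protein of the mitochondrial intermembrane space. Its normalised counts were 41.7, 85.0 and 55.4 in unbound 1, 2 and 3 and 2098, 1545 and 2364 in eluate 1, 2 and 3. Its log2 fold change was 5.06 (SE 0.276, adjusted p = 8.66e-06). CUT306, which covers its start, had 238, 198 and 285 in unbound and 544, 412 and 410.4 in eluate libraries (0.92, SE 0.209, adjusted p = 0.0133). Groups without overlap were a condition for naming CMC4 here, and those of CUT306 did not overlap either. The excess of antisense over sense in unbound (a ratio of 3.96) became an excess of sense in the eluate (0.227).

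POP6, EFM3 and PDR3 are members with a mean above 1000 over all 6 libraries and were picked after their values had been seen. The unbound counts of POP6 and EFM3 lay below 1000, so the eluates lifted them above that mean. POP6 encodes a subunit of RNase P and RNase MRP. It had 267, 234 and 249 in unbound and 2548, 2094 and 2363 in eluate libraries, and antisense1816 had 96.8, 83.3 and 117 against 907, 825 and 958. Both strands therefore rose about equally, by 3.22 (SE 0.162, adjusted p = 1.03e-05) and 3.18 (SE 0.194, adjusted p = 1.6e-05) on the log2 scale, and the ratio stayed at 0.397 and 0.384. For EFM3, a lysine methyltransferase of a translation elongation factor, the mRNA rose from 438, 368 and 423 to 4686, 4789 and 4632 (3.52, SE 0.154, adjusted p = 8.66e-06), while CUT221 had 279.9, 259 and 314 against 375, 374 and 445 (0.48, SE 0.18, adjusted p = 0.113). EFM3 overlaps STR2 on its own strand, whose reads it may share. PDR3, an activator of drug resistance genes, rose by 0.96 (SE 0.175, adjusted p = 0.00547) and XUT_2R-85 by 1.65 (SE 0.252, adjusted p = 0.00063).

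More members with a high mean over all 6 libraries, likewise picked after their values had been seen, rose on both strands. HPF1, a mannoprotein of the cell wall and the most abundant member, had 1892, 1711 and 1482 in unbound and 7798, 12920 and 21283 in eluate libraries (2.93, SE 0.315, adjusted p = 0.000258). Its partner antisense2216 had 9979, 10051 and 11553 against 14560.1, 19826 and 32180.4 and rose by 1.00 (SE 0.278, adjusted p = 0.0376). In both strands eluate 3 was the highest library, and the ratio went from 6.21 to 1.58. RAD17, a subunit of the DNA damage checkpoint clamp, rose from 448, 461 and 352 to 1539, 1630.2 and 1802 (1.98, SE 0.174, adjusted p = 7.74e-05), and SUT800 rose by 1.69 (SE 0.2, adjusted p = 0.000489). EMA19 rose by 1.97 (SE 0.187, adjusted p = 0.000142) and SUT253 by 3.41 (SE 0.217, adjusted p = 1.78e-05), and CHL4, a kinetochore protein, by 1.08 (SE 0.209, adjusted p = 0.00726) and XUT_4R-393 by 1.49 (SE 0.201, adjusted p = 0.000882).

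Of the 30 members with a mean above 1000, 10 were called neither higher nor lower, and SLY41 was among them. Its mRNA had 1540, 1362 and 1861 in unbound and 2003, 1538 and 1239 in eluate libraries, which overlapped (-0.01, SE 0.211, adjusted p = 0.933). antisense2388, across its start, fell from 688, 994 and 347 to 184, 217 and 184 (-1.66, SE 0.332, adjusted p = 0.0073). SLY41 overlaps another mRNA on its own strand.

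The other mRNAs with the largest increases are small or little-studied open reading frames with very low unbound counts. Those with an unbound mean under 40 passed the limit on the mean only through the eluate, so they had to be higher there. The same holds for SMK1, CSM4, NDT80, YOR041C, YLR031W, YMR122C and YPL238C. YPR092W had 1.49, 5.31 and 9.02 in unbound and 156, 115 and 248 in eluate libraries (4.94, SE 0.522, adjusted p = 5.18e-05). Of its unbound values, 1.49 lay under the floor of 3 counts, which is 4.47 in that library. Its partner antisense1397 fell from 99.8, 93.9 and 102 to 42.3, 31.5 and 28.1 (-1.53, SE 0.268, adjusted p = 0.00323). YOL097W-A, with the overlap of 25 bases, rose by 4.85 (SE 0.24, adjusted p = 8.66e-06), and antisense2460 had 0.52 (SE 0.412, adjusted p = 0.533). YDR034C-A and antisense4242 lie over the same 527 bases and rose by 3.93 (SE 0.342, adjusted p = 3.94e-05) and 3.41 (SE 0.241, adjusted p = 1.9e-05). UTR5 rose by 3.52 (SE 0.432, adjusted p = 0.000231). RRT15 rose by 4.32 (SE 0.833, adjusted p = 0.00532), but its eluate values of 328, 72.7 and 1302 were far apart.

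Some members had an mRNA lower in the eluate with a higher partner. Outside the members these directions were common. Of the 4675 mRNAs under the ratio 79.4% were called lower, and of all lncRNAs above the mean 73.1% were called higher. MIX23, another protein of the mitochondrial intermembrane space, had 645, 595 and 651 in unbound and 124, 131 and 142 in eluate libraries. It fell by 2.24 on the log2 scale (SE 0.174, adjusted p = 5.69e-05). antisense275 had 269.5, 264 and 169 against 391, 446 and 389 and rose by 0.83 (SE 0.222, adjusted p = 0.0163). For SRL3 the mRNA went from 189, 168 and 177 to 37.4, 23.0 and 44.3 (-2.37, SE 0.287, adjusted p = 0.000469) and antisense1705 from 124, 113 and 91.5 to 269, 303 and 303 (1.41, SE 0.205, adjusted p = 0.000684). Groups without overlap were a condition for naming both mRNAs, and the groups of their partners did not overlap either. In both pairs the more abundant strand changed from sense to antisense.

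In the held-out fits 24 of the 337 pairs had a lower mRNA and a higher partner. Taken alone, 20.2% of the members' mRNAs were called lower and 38.9% of their partners higher in these fits. Of all nuclear mRNAs above the mean, 69.6% were called lower in these fits. The following examples were picked after their values had been seen. RNH201, the catalytic subunit of RNase H2, which acts on RNA paired with DNA, had 613, 510.2 and 680.4 in unbound and 208, 189 and 219.7 in eluate libraries (-1.54, SE 0.185, adjusted p = 0.000577). antisense966 covers it entirely and rose from 168, 190 and 192 to 813, 790.3 and 1175 (2.31, SE 0.202, adjusted p = 8.33e-05). HAP3, a subunit of the activator of respiratory genes, fell by 1.46 (SE 0.19, adjusted p = 0.000846) and antisense307 rose by 1.74 (SE 0.253, adjusted p = 0.00119). MET8, an enzyme of siroheme synthesis, fell by 2.15 (SE 0.206, adjusted p = 0.000153) and antisense562 rose by 0.93 (SE 0.222, adjusted p = 0.0149). PMA2, a little-expressed proton pump of the plasma membrane, fell by 1.57 (SE 0.171, adjusted p = 0.000378) and antisense1342 rose by 2.30 (SE 0.363, adjusted p = 0.00195). In these 4 pairs the mRNA values stayed below 0 with nuclear mRNA factors, at -0.22, -0.14, -0.84 and -0.25. The median of the other nuclear mRNAs was -0.15 with those factors.

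The reverse, a higher mRNA and a lower partner, was found in 10 pairs of the held-out fits. They are EDS1, YLR031W, YMR122C, YMR317W, PRM1, YOR019W, GAC1, YPL238C, SMK1 and YPR092W. Of these, YLR031W, YMR122C, YPL238C, SMK1 and YPR092W had an unbound mean under 40, so their mRNAs had to be higher in the eluate. Over all nuclear mRNAs above the mean, 6.17% were called higher in these fits. Among the members, taken alone, 22.8% of the mRNAs were called higher and 13.1% of the partners lower. EDS1 had 86.4, 58.5 and 83.8 in unbound and 282, 316 and 319 in eluate libraries (2.01, SE 0.226, adjusted p = 0.000161), and SUT445 had 761, 714 and 715 against 354, 376 and 451 (-0.90, SE 0.169, adjusted p = 0.00773). GAC1, a regulatory subunit of protein phosphatase 1 in glycogen synthesis, rose by 0.73 (SE 0.203, adjusted p = 0.0245), and XUT_15F-307 fell from 691, 726 and 509 to 222, 265 and 315 (-1.26, SE 0.211, adjusted p = 0.00364). With nuclear mRNA factors these 2 partners had 0.42 and 0.06, and those of SMK1, YPR092W and YPL238C had -0.23, -0.23 and -1.40. The ratio of YPL238C fell from 1.05 to 0.0130, the lowest eluate ratio of all members, and that of YPR092W from 18.7 to 0.196.

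The remaining mRNAs with the largest decreases had partners that did not pass in the held-out fits. YBL071C-B fell by 3.67 (SE 0.278, adjusted p = 3.95e-05) and PUT1, the proline oxidase, by 2.47 (SE 0.303, adjusted p = 0.000477), and their partners had 0.04 (adjusted p = 0.998) and -0.20 (adjusted p = 0.768). CTR2, a copper transporter of the vacuole, fell by 2.45 (SE 0.283, adjusted p = 0.000194) and its neighbour YHR175W-A by 2.32 (SE 0.37, adjusted p = 0.00105). These 2 share the partner antisense5089, whose unbound counts of 144, 395 and 112 and eluate counts of 264, 595 and 628 overlapped (1.31, SE 0.47, adjusted p = 0.115, and 0.0284 in the limma fit on all libraries).

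Among partners in pairs free of other same-strand features, the largest increase was that of SUT363, opposite the end of YOR041C. It had 25.3, 8.86 and 18.0 in unbound and 612, 514 and 861 in eluate libraries (5.25, SE 0.367, adjusted p = 1.86e-05), and the mRNA rose by 1.80 (SE 0.324, adjusted p = 0.00238). XUT_13F-375 lies within ADH2, the glucose-repressed alcohol dehydrogenase. The XUT rose from 338, 356 and 179 to 4152, 5231 and 5407 (4.13, SE 0.262, adjusted p = 1.35e-05), while the mRNA had 185, 149 and 50.3 against 93.9, 143 and 28.1 (-0.61, SE 0.616, adjusted p = 0.755). The antisense strand of ADH2 thus stood 2.28 times over the mRNA in unbound and 55.8 times in the eluate. antisense1869, opposite the Ty element gene YGR161C-D, rose by 3.46 (SE 0.432, adjusted p = 0.000177), but only 0.898% of the 50-base windows of that mRNA and 2.89% of those of the lncRNA occur once in the genome, so its reads could belong to other copies.

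The largest decreases among partners were smaller. antisense2817 opposite SGA1 fell by 2.39 (SE 0.438, adjusted p = 0.00333), antisense4156 opposite MRX19 by 2.30 (SE 0.48, adjusted p = 0.0092), CUT405 inside YIG1 by 2.08 (SE 0.356, adjusted p = 0.00273) and antisense2413 inside YOR365C by 1.84 (SE 0.281, adjusted p = 0.00182). The mRNAs SGA1 and MRX19 fell with them, by 2.04 (SE 0.318, adjusted p = 0.00141) and 1.38 (SE 0.241, adjusted p = 0.00374). In the limma fits on all libraries MRX19 lost its call with the total count (-0.47, adjusted p = 0.079) and with nuclear mRNA factors (-0.07, adjusted p = 0.785), and SGA1 with the latter (-0.77, adjusted p = 0.0509). YIG1 (-0.61, adjusted p = 0.381) and YOR365C (-0.39, adjusted p = 0.454) did not pass in the held-out fits, which used the deposited factors.

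The 6 pairs with the highest unbound ratios were CSS1, GAS2, YMR317W, YPR092W, SMK1 and OSI1. Their partners were of very unequal level in unbound, lowest opposite YPR092W and highest opposite CSS1. XUT_9F-4 over CSS1 had 11809, 11723 and 13471 in unbound and 10139, 14200.4 and 10107 in eluate libraries (-0.12, SE 0.202, adjusted p = 0.849). The CSS1 mRNA itself had 692, 643 and 49.0 against 3516, 5532 and 821, so that unbound 3 and eluate 3 were both far below the other libraries of their group. Its log2 fold change was 3.16 (SE 0.973, adjusted p = 0.033), but 1.91 without unbound 3, and it lost the call without eluate 1 (adjusted p = 0.0539) or eluate 2 (adjusted p = 0.0661). XUT_12R-299, which covers GAS2, rose from 5609, 4836 and 3891 to 42002, 33419 and 26027 (2.81, SE 0.233, adjusted p = 5.98e-05). It also covers YLR342W-A, whose mRNA fell by 1.02 (SE 0.256, adjusted p = 0.0213; 0.30 with nuclear mRNA factors) and which had the highest eluate ratio of all members, 129. OSI1 rose from 158, 184 and 63.1 to 683, 791 and 547 (2.43, SE 0.363, adjusted p = 0.000602) against SUT670, with 1961, 1929 and 2392 in unbound and 2058, 2176 and 1469 in eluate libraries (-0.15, SE 0.195, adjusted p = 0.832). YMR317W rose by 1.87 (SE 0.434, adjusted p = 0.00789) and antisense3690 fell by 0.65 (SE 0.15, adjusted p = 0.0224), which was 0.26 with the total count.

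**Figure D4:**
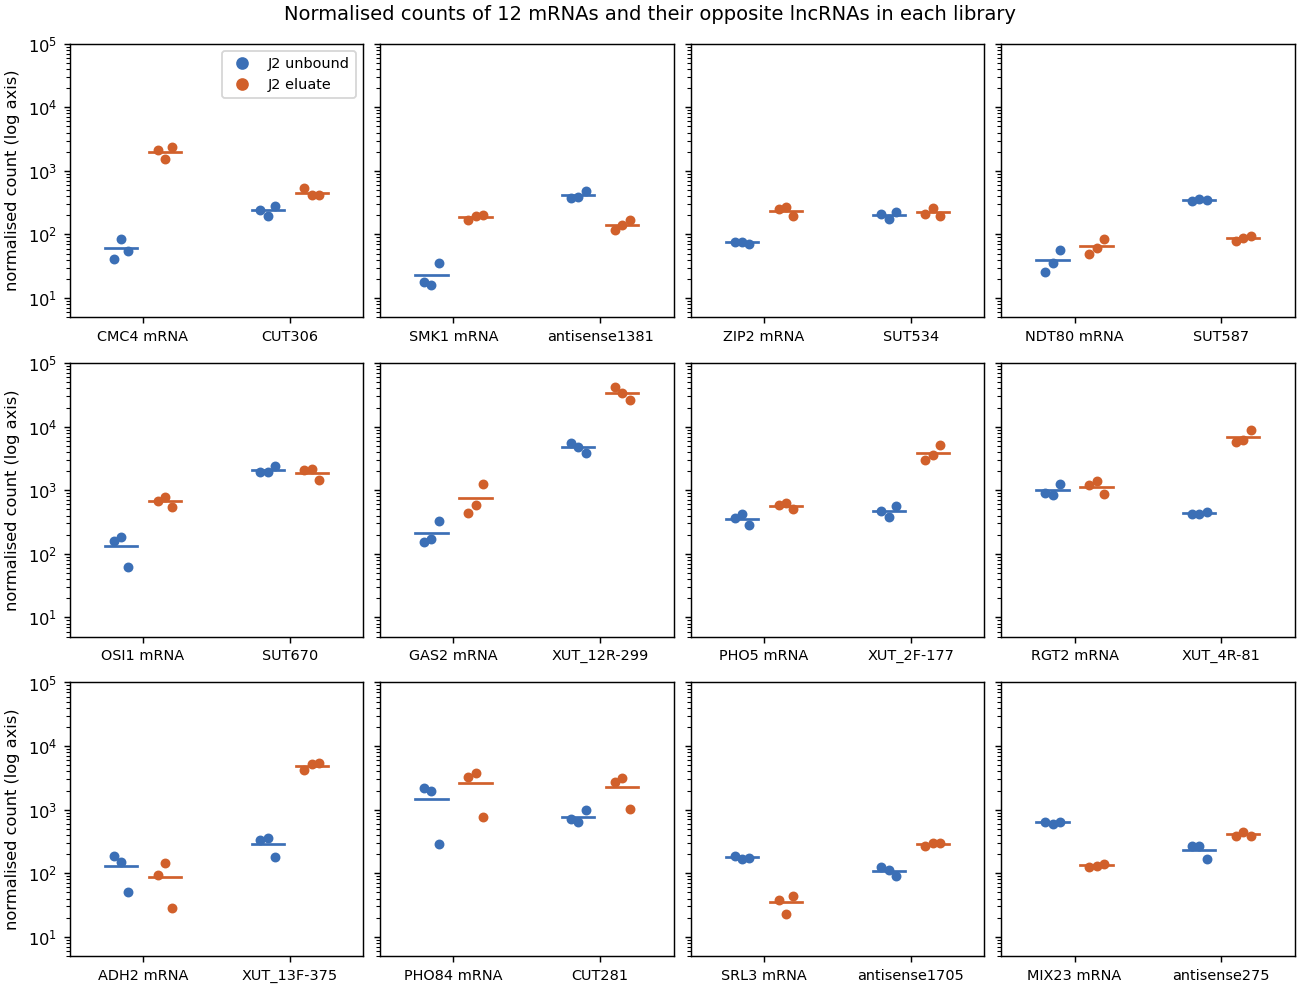
Normalised count (vertical log axis) of 12 mRNAs and their partner lncRNAs in each library, with unbound in blue and eluate in orange, 3 points per group and a line at the mean. CMC4 and SMK1 rise on the mRNA side, RGT2 and ADH2 only on the lncRNA side, and SRL3 and MIX23 fall as mRNAs while their lncRNAs rise.

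Genes of meiosis and sporulation, which haploid and well-fed cells keep off, gave the most members of the gene lists looked at. Of 38 such mRNAs above the mean, 17 were members (44.7%), against 5.91% of all nuclear mRNAs. They are DIT1, MEI4, MSH4, ZIP2, RIM4, NDT80, SPS100, HOP1, SPO22, SGA1, OSW2, REC102, GAS2, SPO21, SPR1, CSM4 and SMK1. In bulk RNA, few cells with much of such a transcript and many cells with little of it cannot be told apart. In the fit on all libraries 9 of the 17 mRNAs were called higher and 2 lower, and of their partners 2 were higher and 6 lower. Of all nuclear mRNAs above the mean, 7.73% were called higher and 74.7% lower, and of all lncRNAs above it 73.1% and 10.5%. Leaving out 1 library, limma lost the calls of the mRNAs MEI4, SPO21 and MSH4 (adjusted p up to 0.109, 0.173 and 0.129). The median log2 fold change was 0.78 for the mRNAs and -0.32 for the partners, against 0.01 and 0.49 over all 337. With the total count as the scale these medians were 1.68 and 0.59, so the sign for the partners turned. NDT80, whose own value is the 0.78, SMK1 and CSM4 passed the limit on the mean only through the eluate. They had to be higher there. Over all 38 listed mRNAs above the mean, 12 were called higher and 12 lower. GAS2, SPO22 and MSH4 had the highest levels of the 17, and NDT80, RIM4, HOP1, CSM4 and DIT1 were picked after their values had been seen. MSH4, which acts in crossing over, had 0.54 (SE 0.209, adjusted p = 0.103, and 0.0394 in the fit on all libraries).

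SMK1, the MAP kinase of spore wall assembly, had the largest increase of the 17 mRNAs, which its unbound mean under 40 partly built in. It had 17.9, 15.9 and 36.1 in unbound and 170.1, 196 and 205 in eluate libraries (3.07, SE 0.332, adjusted p = 0.00017). antisense1381, which runs over its end, had 374, 384 and 491 against 118, 139.9 and 169 and fell by 1.55 (SE 0.213, adjusted p = 0.000695). Neither strand overlapped between the groups, and a ratio of 17.9 in unbound became 0.746 in the eluate. CSM4, needed for movement of meiotic chromosomes, rose by 2.55 (SE 0.685, adjusted p = 0.0277), with unbound 3 (5.15) and eluate 3 (29.8) the lowest of their groups.

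ZIP2 and SPO22 act together where homologous chromosomes begin to pair along their length. ZIP2 had 77.4, 76.2 and 70.9 in unbound and 248, 268 and 194 in eluate libraries (1.64, SE 0.218, adjusted p = 0.000615). SUT534, across its start, had 211, 174 and 229 against 213, 264 and 198 (0.14, SE 0.209, adjusted p = 0.938), and its groups overlapped. SPO22 rose by 1.32 (SE 0.214, adjusted p = 0.00123) and XUT_9F-113 had 0.05 (SE 0.184, adjusted p = 0.868). HOP1, a protein of the meiotic chromosome axis, rose by 0.99 (SE 0.22, adjusted p = 0.00979) and SUT611 had 0.29 (adjusted p = 0.49). In these 3 pairs an antisense excess in unbound (ratios of 2.74, 3.48 and 1.39) was near parity in the eluate (0.952, 1.44 and 0.854).

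For NDT80 and RIM4 only the partner passed in the held-out fits. NDT80 encodes the activator of the middle meiotic genes. Its mRNA had 25.3, 35.4 and 56.7 against 50.1, 61.8 and 86.0, which overlapped (0.78, SE 0.36, adjusted p = 0.245, and 0.0257 with the replicate number as a block in limma on all 6 libraries), whereas SUT587 fell from 339, 365 and 351 to 78.6, 89.0 and 95.4 (-2.0, SE 0.193, adjusted p = 0.000142). RIM4, an RNA-binding regulator, had 0.01 (SE 0.333, adjusted p = 0.945) and SUT574 fell by 1.02 (SE 0.24, adjusted p = 0.0139), a value that was 0.30 with nuclear mRNA factors. Of the spore wall genes, GAS2 rose by 1.74 (SE 0.393, adjusted p = 0.0139) and DIT1 fell by 0.96 (SE 0.291, adjusted p = 0.0473). The DIT1 value was -0.05 with the total count and 0.35 with nuclear mRNA factors.

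**Figure D5:**
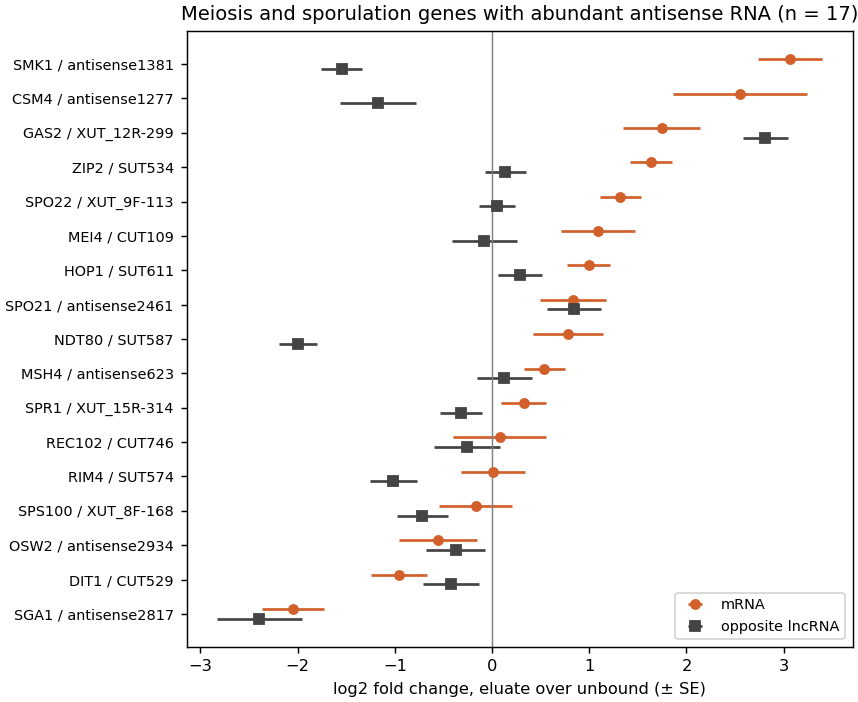
Log2 fold change of eluate over unbound (horizontal axis) with the SE of the limma fit for the 17 meiosis and sporulation members, mRNA as orange circles and partner lncRNA as dark squares. SMK1 and CSM4 stand at the top with the mRNA to the right of 0 and the lncRNA to the left, and SGA1 at the bottom with both to the left.

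Of 12 genes listed for regulation by an antisense RNA in budding yeast, 10 lay above the mean and 5 were members, namely GAL1, PHO5, ZIP2, HMS2 and PHO84. PHO5, the repressible acid phosphatase, had 366, 425 and 282 in unbound and 577, 636 and 513 in eluate libraries (0.70, SE 0.201, adjusted p = 0.0315). XUT_2F-177, which runs over PHO5 and on across TIM12, rose from 471, 377 and 568 to 3011, 3546 and 5125 (3.03, SE 0.233, adjusted p = 4.23e-05). The TIM12 mRNA, paired with the same XUT, fell by 1.78 on the log2 scale, so that mRNAs opposite the same XUT went in opposite directions (adjusted p = 0.00045 for TIM12).

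PHO84, the high-affinity phosphate transporter, varied more between library numbers than between groups. Its mRNA had 2156, 1943 and 286 in unbound and 3235, 3762 and 760.3 in eluate libraries, with library 3 low in both groups. The log2 fold change of 0.98 (SE 0.783) had an adjusted p of 0.961 in the held-out limma fits. With the replicate number as a block, limma on all 6 libraries gave an adjusted p of 0.000661. CUT281 had 718, 632 and 970.4 against 2695, 3139 and 1027 and rose by 1.43 (SE 0.374, adjusted p = 0.0231). HMS2, a relative of heat shock factors, had 1495, 1399 and 1525 against 1030.2, 1252 and 1193 (-0.35, SE 0.157, adjusted p = 0.181), and SUT650 rose from 523, 524 and 302 to 1041, 1468 and 1348 (1.54, SE 0.246, adjusted p = 0.000959). HMS2 overlaps BAT2 and YJR146W on its own strand.

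The 5 others above the mean had partners under the ratio. These were PHO85 with a ratio of 0.109, SEG2 with 0.0326, CDC28 with 0.0163, SUR7 with 0.00559 and KCS1 with 0.00386. For PHO85 and SEG2 the study had raised the antisense RNA, from a plasmid and by deletion of SET2. In the order PHO85, SEG2, CDC28, SUR7 and KCS1, the mRNAs had log2 fold changes of -0.25, -0.88, -2.58, -3.20 and -1.77. The opposite lncRNAs had 2.0, 1.38, 2.72, 3.05 and 2.94.

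In the galactose pathway 3 of 4 mRNAs above the mean were members. GAL1, the galactokinase, had 329, 342 and 335 in unbound and 173, 166 and 171 in eluate libraries and fell by 0.98 (SE 0.174, adjusted p = 0.0044) under the deposited factors, a value that was 0.34 with nuclear mRNA factors. GAL3, the galactose sensor, fell by 0.86 (SE 0.241, adjusted p = 0.0439), and had 0.05 with the total count. GAL4, the activator of the pathway, had 0.44 (SE 0.172, adjusted p = 0.123, and 0.0401 in the fit on all libraries). Their partners CUT445, antisense4561 and XUT_16F-30 had -0.24 (adjusted p = 0.78), -1.10 (adjusted p = 0.056) and 0.27 (adjusted p = 0.464). CUT445 overlaps GAL10 on its own strand.

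Glucose sensing and transport gave 3 members of 13. RGT2, a glucose sensor of the plasma membrane, had 893, 841 and 1259 in unbound and 1196, 1376 and 863 in eluate libraries (0.20, SE 0.227, adjusted p = 0.785). XUT_4R-81, which covers the whole RGT2 transcript, rose from 421, 418 and 459 to 5772, 6068 and 8972 (3.97, SE 0.196, adjusted p = 1.03e-05). A ratio of 0.434 in unbound became 6.06 in the eluate. The transporter HXT8 fell by 0.73 (SE 0.223, adjusted p = 0.0337) under the deposited factors, a call lost without eluate 2 (adjusted p = 0.0503) and a value that was 0.18 with the total count. HXT5 had -0.21 (SE 0.649, adjusted p = 0.905).

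Of 41 mating genes, 5 were members. PRM1, which acts in cell fusion, rose by 0.88 (SE 0.212, adjusted p = 0.0189) and SUT743 fell by 0.97 (SE 0.193, adjusted p = 0.00788), which was 0.34 with nuclear mRNA factors. PRM1 and PRM9 were picked after their values had been seen. PRM8 (0.36, adjusted p = 0.575), PRM10 (-0.17, adjusted p = 0.653), ASG7 (0.43, adjusted p = 0.266) and PRM9 (0.39, adjusted p = 0.535) did not pass in the held-out fits, which used the deposited factors. The partners of PRM8, PRM9 and ASG7 rose by 1.73, 1.60 and 1.13. For PRM8 and its partner 64.8% and 62.0% of the windows are unique, so reads may be split with a related gene. The phosphate list gave 2 members of 23, PHO5 and PHO84. No member came from 68 mRNAs of DNA replication and repair, 20 of glycolysis or 138 of ribosomal proteins.

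Reads counted in more than 1 feature limit some of these values. Whether overlapping features share reads was not stated, and 162 of the partners overlapped a feature of their own strand that is no lncRNA, 36 of them an mRNA. In 144 pairs neither strand had such an overlap. Over these the median log2 fold change was -0.25 for the mRNAs and 0.48 for the partners, with 37 and 60 called higher and 46 and 23 lower. Of the 337 mRNAs, 22 are not listed as protein-coding in the reference, and for 22 fewer than 80% of the 50-base windows are unique.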

How the data were processed

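Total RNA was precipitated with J2, giving 3 unbound and 3 eluate libraries (TruSeq RNA Sample Prep Kit v2), sequenced as single reads of 50 bases. Per the study's methods, the authors aligned reads to sacCer3 with STAR, allowing 2 mismatches, counted them with featureCounts (Subread 1.5.0-p1) over genes and catalogued non-coding transcripts, and normalised with DESeq2 1.24.0. The strand setting and the treatment of overlapping features are not given in the sources used here. All sense and antisense levels, and so every ratio of partner to mRNA, rest on strand-specific counting, which was not tested. The authors deposited normalised counts (a signal, counts divided by 1 size factor per library). These were turned back to reads, 100% whole within 0.1 read. The authors' pooled mean, fold change and p-value columns were not used.

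Members and gene lists were chosen with earlier results of these data known. Eluate and unbound were compared with limma 3.58.1 (lmFit and eBayes with trend, R 4.3.3) on log2(normalised count + 1), with Benjamini-Hochberg adjustment over 15753 features. The choice of members used the unbound values, so each named transcript carries the highest adjusted p of 3 fits. Each of these fits left out 1 unbound library. The members had been chosen on the mean of all unbound libraries, so each fit still held libraries that took part in the choice. These p-values are therefore not independent of it. Alternatives were DESeq2 1.42.0 and edgeR 4.0.16 on the recovered reads, other scalings, pseudocounts and selection limits, and leaving out each library. Named are the 6 pairs of highest ratio, 3 pairs each side of the limit, the 6 highest and 6 lowest mRNAs without overlap of groups and the 4 highest and 4 lowest partners among pairs without same-strand features other than lncRNAs, members known for antisense regulation and up to 3 of each other list. Others named were picked after their values had been seen.

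The labels number the libraries 1 to 3 in both groups. Deviations from the group means of same-numbered libraries correlated at 0.228, 0.321 and 0.299 over features, so the numbers were taken to pair the libraries. The main limma fits did not use this pairing, and the fit with the replicate number as a block did. The study describes the 3 samples as biologically independent. The labels give no batch, and p-values measure the spread between these libraries.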

Additional observations from a re-analysis of the deposited data

How the results depend on the processing

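Over all members, the distance to the other mRNAs kept its sign under every alternative run, and the fold changes themselves moved with the scale. For other scalings the kept sign was built in, since size factors move all features nearly alike. In the bins of lowest unbound mean the members lay below the others. Their medians there were -0.12 against 0.11 at 40 to 100 and 1.80 against 2.77 under 40. TMM factors gave medians of 0.17 for the mRNAs and 0.65 for the partners. The total count gave 0.92 (191 higher, 23 lower) and 1.40 (228 higher, 12 lower), and nuclear mRNA factors 1.32 (235, 10) and 1.80 (271, 4). Other limits on the choice of pairs also moved values. Without same-strand features other than lncRNAs (144 pairs), the mRNAs had -0.25 (37 higher, 46 lower), 1.18 above the others, 60 partners were higher and 23 lower, and the median log2 ratio in the eluate was -0.32. With the ratio per kb the values were 0.14 for the mRNAs, 1.63 above the others, 0.35 for the partners and -0.94 for the ratio. At a ratio of at least 1 (124 pairs) they were 0.34 (47 higher, 12 lower), 1.77 above the others, 0.033 for the partners (39 higher, 39 lower) and 0.59 for the ratio. An overlap of at least 0.8 of the mRNA (220 pairs) left 59 mRNAs higher and 31 partners lower, with a ratio of 0.31. A mean above 100 gave 0.14 (55 lower), 1.64 above the others, 0.67 for the partners (33 lower) and -0.047 for the ratio, and no limit on the mean (531 pairs) gave 0.28 for the partners (121 lower) and 0.43 for the ratio. Pairs at the ratio in each unbound library, an alternative chosen after seeing the data, gave 0.18, 1.64 above the others and a ratio of 0.21, while the other 3 so chosen (no same-strand mRNA over the partner, no coding feature opposite, at least 80% unique windows) moved no median by more than the spread between libraries. Leaving out 1 library gave mRNA medians of -0.02 to 0.11 (79 to 98 higher, 69 to 90 lower), 1.38 to 1.60 above the others, partner medians of 0.40 to 0.54 (133 to 148 higher, 46 to 59 lower) and 332 to 354 members. Fold changes of named mRNAs turned to positive with the total count and with nuclear mRNA factors for VAC17 (0.90, 1.30), HMS2 (0.57, 0.97), GAL3 (0.049, 0.45), HXT8 (0.18, 0.58), PRM10 (0.74, 1.14), BCS1 (0.41, 0.82), YOR365C (0.51, 0.90), ADH2 (0.29, 0.69), YIG1 (0.30, 0.70), HXT5 (0.70, 1.10), SLY41 (0.91, 1.31) and YGR161C-D (0.53, 0.93), and with nuclear mRNA factors only for GAL1 (0.34), DIT1 (0.35) and YLR342W-A (0.30). With the replicate number as a block, in the fit on all libraries, 113 mRNAs were higher and 100 lower, and 160 and 64 partners. The mRNAs of PHO84 (0.98) and NDT80 then passed the test, and no other call of a transcript whose value is given changed. Values near the floor of 3 counts, which was 1.47 to 5.31 normalised counts, have little precision, and reads of overlapping features cannot be told apart.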
